A study of Homo sapiens with 6 samples.

Results

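The 42 genes described here drive and police cell division: the cyclin B and CDK1 machinery, the kinases PLK1, AURKA, AURKB and NEK2, the spindle checkpoint, the kinetochore, condensin and cytokinesis proteins, with the proliferation genes MKI67 and TOP2A and the transcription factor FOXM1. They were taken as a fixed list of symbols, matched to the gene names in the deposited count files. All 42 were found among the 44591 genes listed, and all 42 were among the 16222 genes that passed the filter on low counts. RNA came from A2780, a human ovarian cancer cell line labelled wild type, kept in DMEM with serum. There were 3 untreated libraries and 3 libraries of cells treated with human recombinant CRMP2 (r-CRMP2, the microtubule-associated protein also called DPYSL2) at 40 ng/ml, both labelled 48 h. Polyadenylated RNA was sequenced, and the study asked which signaling pathways r-CRMP2 alters in these cells.

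Most of these genes are transcribed together, late in the cell cycle. Cyclin B and CDK1 trigger entry into mitosis, the checkpoint proteins hold the anaphase-promoting complex (APC/C) in check until every kinetochore is attached, and APC/C with CDC20 and UBE2C then marks cyclin B and securin (PTTG1) for destruction. Many of their promoters carry a short element near the transcript start, the cell cycle genes homology region (CHR), with CCAAT boxes bound by NF-Y upstream. The CHR is bound by MuvB complexes, which repress these genes as DREAM in resting cells and activate them with B-MYB and FOXM1 in dividing cells.

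To show this shared sequence, 6 promoter windows of the RefSeq table (GRCh38.p14, 250 bases before to 50 after the transcript start, on the gene's strand) are printed below, 3 of genes that rose after r-CRMP2 and 3 of genes that fell, chosen among the genes described in full as those furthest from 0 that held both motifs. Capitals mark the CHR (TTTGAA or TTCGAA) and the CCAAT box, on either strand, so that TTCAAA and ATTGG are matches on the opposite strand. CCAAT matches on opposite strands can overlap, as in HMMR (CCAATTGG).
DLGAP5 (chr14:55191536-55191835, minus strand): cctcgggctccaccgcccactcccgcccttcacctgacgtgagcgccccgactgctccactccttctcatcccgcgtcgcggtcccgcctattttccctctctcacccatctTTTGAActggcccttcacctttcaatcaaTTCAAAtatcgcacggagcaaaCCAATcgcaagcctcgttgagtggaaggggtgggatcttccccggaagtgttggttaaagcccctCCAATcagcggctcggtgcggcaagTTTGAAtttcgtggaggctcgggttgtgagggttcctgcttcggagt
CDK1 (chr10:60778228-60778527, plus strand): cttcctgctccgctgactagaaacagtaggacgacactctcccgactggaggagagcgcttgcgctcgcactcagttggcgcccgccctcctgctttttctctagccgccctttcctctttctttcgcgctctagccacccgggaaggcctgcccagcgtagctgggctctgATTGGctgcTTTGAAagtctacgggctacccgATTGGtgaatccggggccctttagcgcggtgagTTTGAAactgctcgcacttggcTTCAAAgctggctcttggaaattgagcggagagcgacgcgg
MAD2L1 (chr4:120066799-120067098, minus strand): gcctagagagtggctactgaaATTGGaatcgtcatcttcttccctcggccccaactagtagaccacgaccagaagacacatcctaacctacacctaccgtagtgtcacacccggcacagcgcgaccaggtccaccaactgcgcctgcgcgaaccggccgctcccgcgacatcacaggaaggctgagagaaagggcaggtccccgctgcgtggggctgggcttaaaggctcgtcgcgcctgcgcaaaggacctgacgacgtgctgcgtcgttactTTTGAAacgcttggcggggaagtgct
HMMR (chr5:163460382-163460681, plus strand): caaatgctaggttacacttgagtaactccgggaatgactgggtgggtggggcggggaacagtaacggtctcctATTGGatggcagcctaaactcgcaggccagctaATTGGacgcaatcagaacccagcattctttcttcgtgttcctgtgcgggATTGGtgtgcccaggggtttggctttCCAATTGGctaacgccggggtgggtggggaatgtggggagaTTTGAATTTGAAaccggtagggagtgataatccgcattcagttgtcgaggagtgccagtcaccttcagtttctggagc
ASPM (chr1:197146620-197146919, minus strand): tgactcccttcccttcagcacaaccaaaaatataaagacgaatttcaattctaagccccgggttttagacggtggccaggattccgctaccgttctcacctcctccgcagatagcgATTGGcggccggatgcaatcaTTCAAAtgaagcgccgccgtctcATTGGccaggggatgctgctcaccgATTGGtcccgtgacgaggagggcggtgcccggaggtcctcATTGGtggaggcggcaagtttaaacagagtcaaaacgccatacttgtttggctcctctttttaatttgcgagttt
CENPF (chr1:214602945-214603244, plus strand): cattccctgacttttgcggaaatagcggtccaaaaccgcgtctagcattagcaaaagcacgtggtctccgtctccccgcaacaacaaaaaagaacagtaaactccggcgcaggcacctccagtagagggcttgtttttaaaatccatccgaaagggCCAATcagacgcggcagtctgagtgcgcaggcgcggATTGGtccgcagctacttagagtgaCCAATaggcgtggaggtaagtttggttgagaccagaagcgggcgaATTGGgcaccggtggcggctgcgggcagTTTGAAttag

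Of the 42 genes, 35 had a window in that table, and a gene with several windows counted once (AURKA, BIRC5, BUB3, FOXM1, TPX2, TTK and UBE2C had no entry). The CHR letters were in a window of 28 of 35 genes (80.0%), against 19.5% of all 27305 genes in the table. The CCAAT letters were in 27 of 35 (77.1%), against 39.7% of all genes, and 21 of 35 genes held both in the same window, against 7.85% of all genes. In 24 of the 35 genes a CHR match began within 50 bases of the transcript start. A CHR match was in 20 of 25 genes that rose, 4 of 5 that fell and 4 of 5 that did not pass the test. HMMR, which fell, held 2 CHR matches in a row, 28 and 22 bases before the start in the window printed above. CENPE, which fell most, held neither the CHR letters nor CCAAT. The windows of NEK2 and AURKB, which rose more than 2-fold, held CCAAT but not the CHR letters. Only TTTGAA and TTCGAA were searched as CHR letters, so a gene without them may hold the element in another spelling. The letters were not particular to these genes. In the 8 other lists of cell division genes described further on, a CHR match was in 3 of 3 other condensin subunits, 7 of 11 other mitotic entry regulators, 9 of 15 other cytokinesis and spindle genes, 13 of 26 other kinetochore genes and 5 of 11 MuvB and DREAM factors. It was in 4 of 12 cohesin genes, 5 of 17 APC/C genes and 3 of 42 genes of DNA replication at the G1/S transition.

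**Figure D1:**
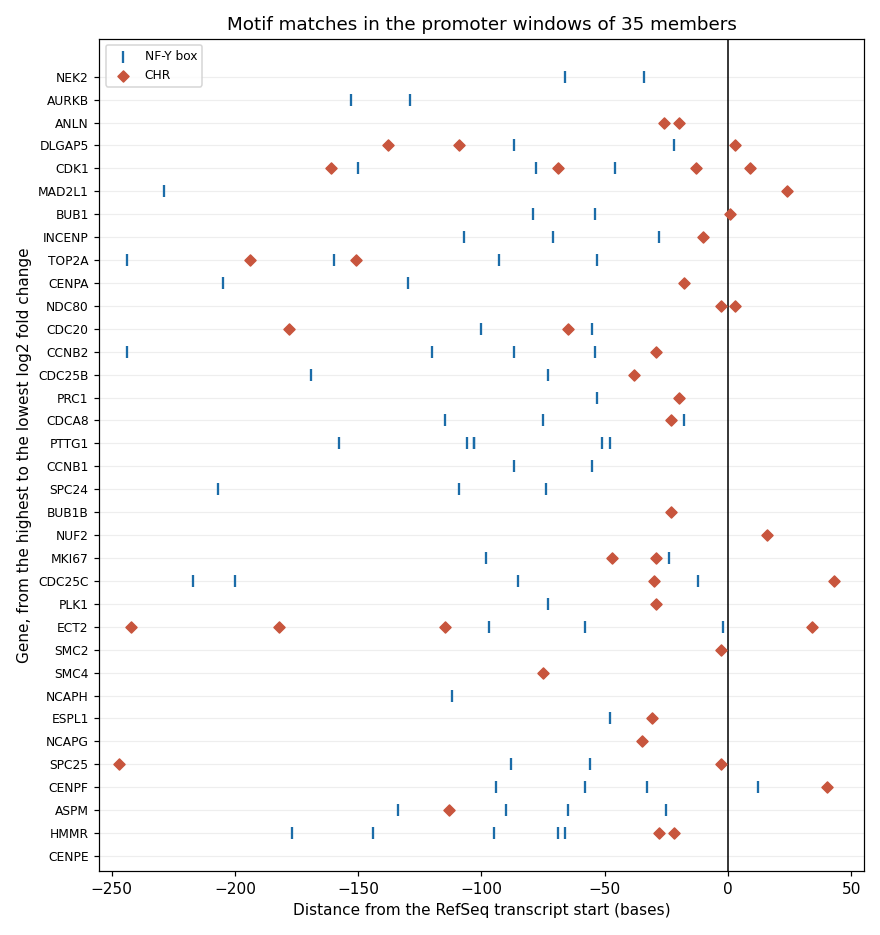
Position of each CHR match (diamonds) and each NF-Y box, the letters CCAAT on either strand (vertical ticks), relative to the RefSeq transcript start (0, black line; horizontal axis in bases), for 35 of the genes ordered from the highest to the lowest log2 fold change (vertical axis). All windows of a gene are drawn on its line. Matches of both kinds lie on genes at the top and at the bottom of the order, and in 24 genes a CHR match lies within 50 bases of the start.

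The libraries held between 21888530 and 25711353 counts. Counts were scaled by TMM and are given as CPM, counts brought to a common library size, and genes were tested with edgeR's quasi-likelihood test, with p-values adjusted over all 16222 genes (Benjamini-Hochberg) and a threshold of 0.05. The labels do not say whether replicates were separate cultures, so these p-values measure the spread between the libraries only. The TMM factors lay between 1.10 and 1.12 in untreated and between 0.878 and 0.922 in r-CRMP2 libraries, so the scaling bears on every direction given. The median log2 fold change of all genes tested was -0.03, and it moved to -0.34 when libraries were scaled by their totals only. The labelled cell type was checked against markers, in TPM, the deposited values, which also divide by gene length. In untreated cells KRT8 and KRT18, keratins of simple epithelia, had mean levels of 1362 and 1986 TPM. The epithelial markers EPCAM and CDH1 were at only 6.30 and 0.0622 TPM there. The lineage markers WT1, SOX17, PAX8 and MUC16 had mean levels of at most 2.44 TPM in untreated cells. Of markers of other cells, the 8 fibroblast genes summed to between 226 and 266 TPM in untreated and between 158 and 170.3 TPM in r-CRMP2 libraries, mostly COL1A1, with FAP at most 0.299 TPM. These TPM sums are not scaled by TMM. In the TMM-scaled test COL1A1 (log2 fold change -0.41) and PDGFRB (-0.41) fell, while COL1A2 (0.35) and LUM (0.53) rose. COL3A1, DCN and ACTA2 did not pass that test. The 3 leukocyte genes summed to between 28.0 and 33.3 TPM and between 77.5 and 78.4 TPM, nearly all CD68, with PTPRC at most 0.0504 TPM. The 3 endothelial genes summed to between 3.52 and 3.92 TPM and between 0.633 and 1.05 TPM. The part of these shifts in the results below was not tested.

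Most mitotic regulators were higher after r-CRMP2, by modest amounts. Of the 42 genes, 32 rose and 5 fell, where 28.2% of all genes tested rose and 30.1% fell. The median log2 fold change was 0.51, against -0.03 for all genes tested. A log2 fold change of 1 in addition was passed by 4 rising genes, UBE2C, NEK2, AURKB and ANLN, where 5.12% of all genes passed it upward. No member fell by 1 on the log2 scale, where 8.86% of all genes passed both thresholds downward, and the lowest value was -0.63, for CENPE. In 30 genes all r-CRMP2 libraries lay above all untreated libraries, and in 4 all lay below, where 30.9% and 33.3% of all genes tested did so. When libraries were scaled by their totals only, 23 of the 42 genes rose and 9 fell, with a median of 0.20, where 13.4% of all genes rose and 52.1% fell, and PLK1, FOXM1, CDC25C, ECT2 and SMC2 turned below 0. In bulk RNA, a larger share of cells in mitosis and more of these transcripts in each dividing cell cannot be told apart.

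Before any scaling by TMM, the 42 genes took 0.562%, 0.524% and 0.533% of the counts of untreated replicates 1, 2 and 3, and 0.664%, 0.596% and 0.630% of r-CRMP2 replicates 1, 2 and 3. The r-CRMP2 libraries thus lay above the untreated libraries in this share. As a sum, the share is weighted to abundant genes and does not describe each member. TOP2A had between 13752 and 16577 counts in untreated and between 17955 and 22177 in r-CRMP2 libraries. ANLN had between 5896 and 8639 and between 9817 and 13104 counts. Within the untreated group, replicate 1 was the highest of its group for 30 of the 42 genes and replicate 2 the lowest for 26, with median deviations from the group mean of 0.067 and -0.044 on the log2 scale.

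**Figure D2:**
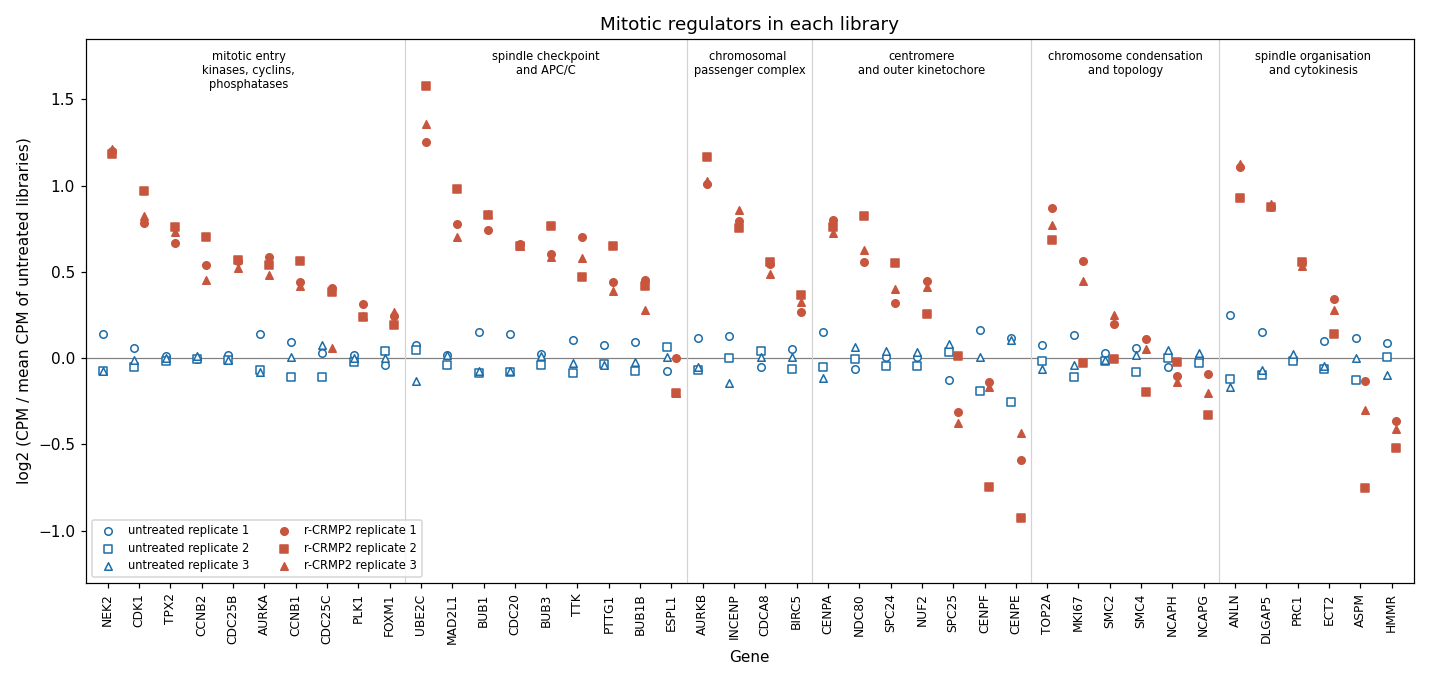
Level of each of the 42 genes in each library, as log2 of its CPM over the mean CPM of the untreated libraries (vertical axis), with genes grouped by role and ordered by fold change within a role (horizontal axis). Open symbols are untreated and filled symbols r-CRMP2 libraries, with a symbol for each replicate. Filled symbols lie above all open ones for 30 genes and below all of them for 4, and the squares of r-CRMP2 replicate 2 lie lowest of the r-CRMP2 symbols for MKI67, CENPF, ASPM and CENPE.

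All 10 genes of mitotic entry rose, with log2 fold changes from 0.24 to 1.20, where 28.2% of all genes tested rose. NEK2 (chromosome 1, 211831598 to 211848972 in the deposited coordinates, labelled hg19), a kinase that splits the centrosomes, was at 66.4, 57.3 and 57.2 CPM in untreated replicates 1, 2 and 3 and at 139, 137 and 139.8 CPM in r-CRMP2 replicates 1, 2 and 3. The r-CRMP2 libraries lay close together and were more than 2-fold above the untreated ones, a log2 fold change of 1.20 (SE 0.07, which reflects how log2 CPM varied within each group, adjusted p = 4.07e-11 from edgeR). CDK1 (chromosome 10, 62538089 to 62554610), the kinase that drives mitosis, was at 85.7, 79.3 and 81.8 CPM in untreated and at 142, 161 and 146 CPM in r-CRMP2 libraries. The groups did not overlap, and the log2 fold change was 0.86 (SE 0.07, adjusted p = 2.40e-09 from edgeR). TPX2 (chromosome 20, 30326904 to 30389603), which activates AURKA on the spindle, had the highest level per length of this group, a mean of 201 TPM over the 6 libraries. It was at 263, 258 and 261 CPM in untreated and at 414, 442 and 433 CPM in r-CRMP2 libraries, and its log2 fold change was 0.72 (SE 0.03, adjusted p = 5.90e-09 from edgeR).

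The B-type cyclins CCNB1 and CCNB2 had log2 fold changes of 0.47 (SE 0.07) and 0.57 (SE 0.07). CDC25B, a phosphatase that removes the inhibitory phosphates of CDK1, had 0.55 (SE 0.02), and AURKA, the centrosomal Aurora kinase, had 0.54 (SE 0.08). The 3 smallest rises of the group were in CDC25C (0.29), PLK1 (0.27) and FOXM1 (0.24), and those are the 3 that turned below 0 with library size alone. CDC25C overlaps FAM53C on the opposite strand, which had between 1257 and 1938 counts against 431 to 548 for CDC25C, and since strand use is not stated its counts are uncertain. Its rise lost the threshold without r-CRMP2 replicate 1 (log2 fold change 0.24) and without untreated replicate 2 (0.24). FOXM1 overlaps RHNO1 on the opposite strand, which had between 286 and 662 counts against 2944 to 3607 for FOXM1.

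Of 9 genes of the spindle checkpoint and of the partners and downstream factors of APC/C, 8 rose (88.9%). Of all genes tested, 28.2% rose. The core subunits of APC/C are not among these 9 and are given further on. UBE2C (chromosome 20, 44441215 to 44445596), the ubiquitin-conjugating enzyme that works with APC/C, rose most of all 42 genes. It was at 96.3, 94.5 and 83.5 CPM in untreated and at 218, 273 and 234 CPM in r-CRMP2 libraries. All treated libraries were above 2 times the untreated mean of 91.4 ± 6.95 CPM (SD, n = 3), and the log2 fold change was 1.40 (SE 0.12, adjusted p = 3.92e-11 from edgeR), or 2.64-fold. It was also the second most abundant of the 42 genes per length, with a mean of 274 TPM.

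MAD2L1 (chromosome 4, 120980577 to 120988013), the checkpoint protein that sequesters CDC20, was at 45.7, 43.9 and 45.7 CPM in untreated and at 77.5, 88.9 and 73.4 CPM in r-CRMP2 libraries. Its log2 fold change was 0.82 (SE 0.08, adjusted p = 1.85e-08 from edgeR). BUB1 (chromosome 2, 111395275 to 111435684), the kinase that recruits checkpoint proteins to the kinetochore, was at 84.5, 71.6 and 72.3 CPM in untreated and at 128, 136 and 136 CPM in r-CRMP2 libraries, a log2 fold change of 0.80 (SE 0.08, adjusted p = 1.39e-08 from edgeR). Neither gene had overlapping groups. CDC20, the APC/C activator, BUB3, a partner of BUB1, and TTK, the kinase that starts checkpoint signaling, rose by 0.66, 0.65 and 0.59 on the log2 scale. Securin (PTTG1), which holds separase inactive, rose by 0.50 and the checkpoint kinase-like protein BUB1B by 0.39, and the BUB1B rise did not pass with library size alone (0.078). Separase itself (ESPL1), which cuts cohesin, did not pass the test, with a log2 fold change of -0.13 (SE 0.08). Without r-CRMP2 replicate 1 it was past the threshold (-0.19), as it was with library size alone (-0.44). CDC20 shares a near-identical sequence of 1503 bases with the pseudogene CDC20P1, which had at most 55 counts against at least 3541 for CDC20.

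All 4 genes of the chromosomal passenger complex, which corrects wrong attachments of chromosomes to the spindle, rose, where 28.2% of all genes tested rose. The kinase of the complex, AURKB (chromosome 17, 8108049 to 8113944), was at 60.6, 53.3 and 54.0 CPM in untreated and at 112, 125 and 114 CPM in r-CRMP2 libraries. This was a log2 fold change of 1.07 (SE 0.08, adjusted p = 2.80e-10 from edgeR), with no overlap between the groups. The scaffold INCENP had a log2 fold change of 0.80 and borealin (CDCA8) of 0.53. Survivin (BIRC5, chromosome 17, 76210277 to 76221716) was the most abundant of the complex per length, with a mean of 125 TPM. It was at 144, 133 and 139.6 CPM in untreated and at 167, 179 and 174 CPM in r-CRMP2 libraries, a log2 fold change of 0.32 (SE 0.04, adjusted p = 0.000182 from edgeR). With library size alone its log2 fold change was 0.0085 and did not pass.

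The kinetochore genes were divided. Of 7 genes, 4 rose (57.1%), 2 fell (28.6%) and SPC25 did not pass the test, where 28.2% of all genes tested rose and 30.1% fell. CENPA, the histone variant that marks the centromere, rose by 0.76 on the log2 scale. In the 4-subunit NDC80 complex, which binds microtubules, NDC80 (0.67), NUF2 (0.37) and SPC24 (0.43) rose, while SPC25 had a log2 fold change of -0.22 (SE 0.13) at the low level of 6.21 ± 0.468 CPM (SD, n = 3) in untreated cells. SPC24 (chromosome 19, 11256170 to 11266488), the most abundant kinetochore gene per length with a mean of 56.7 TPM, was at 59.8, 57.7 and 61.2 CPM in untreated and at 74.3, 87.2 and 78.7 CPM in r-CRMP2 libraries (log2 fold change 0.43, SE 0.07, adjusted p = 3.24e-05 from edgeR). With library size alone, NUF2 (0.064) and SPC24 (0.11) did not pass, and SPC25 passed as a fall (-0.53). The SPC25 groups overlapped. SPC25 had only 107 to 180 counts, and its transcripts share near-identical stretches with those of CCDC88A (762 to 1417 counts), REV3L (360 to 832 counts) and SPIN3 (190 to 372 counts), so its counts are uncertain.

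The motor protein CENPE (chromosome 4, 104026963 to 104119566), which carries chromosomes to the metaphase plate, fell most of the 42 genes and was the least abundant, with a mean of 4.09 TPM. It was at 20.7, 16.1 and 20.6 CPM in untreated and at 12.7, 10.1 and 14.2 CPM in r-CRMP2 libraries, without overlap, and its log2 fold change was -0.63 (SE 0.19, adjusted p = 0.000217 from edgeR). CENPF (chromosome 1, 214776532 to 214837914), a large protein of the outer kinetochore, was at 320.4, 250.3 and 287 CPM in untreated and at 260.2, 170.4 and 254 CPM in r-CRMP2 libraries. Here the groups overlapped, with r-CRMP2 replicate 2 far below the other treated libraries, and the log2 fold change of -0.32 (SE 0.22, adjusted p = 0.0216 from edgeR) did not pass without r-CRMP2 replicate 2 (-0.14), without untreated replicate 1 (-0.23) or with DESeq2 (-0.30).

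Among the genes of chromosome structure, 2 of 6 rose (33.3%), 1 fell (16.7%) and 3 did not pass the test. Of all genes tested, 28.2% rose and 30.1% fell. TOP2A (chromosome 17, 38544773 to 38574202), the topoisomerase that untangles sister chromatids, was the most abundant of all 42 genes per length, with a mean of 284 TPM. It was at 596, 560.4 and 541 CPM in untreated and at 1036, 908 and 966 CPM in r-CRMP2 libraries, a log2 fold change of 0.78 (SE 0.07, adjusted p = 1.01e-08 from edgeR). MKI67, the gene of the proliferation marker Ki-67, is given here in full because of its wide use, a choice made after its values were seen. It was at 488, 413 and 433 CPM in untreated and at 657, 436 and 607 CPM in r-CRMP2 libraries. The r-CRMP2 replicate 2 value lay inside the untreated range, and the rise of 0.35 (SE 0.19, adjusted p = 0.008 from edgeR) did not pass without untreated replicate 2 (0.30), with DESeq2 (0.37) or with library size alone (0.043).

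None of the 4 condensin subunits among the 42 genes, which compact chromosomes, rose past the threshold. NCAPG (chromosome 4, 17812436 to 17846488) fell, from 85.0, 83.5 and 86.7 CPM in untreated to 79.8, 67.7 and 73.8 CPM in r-CRMP2 libraries, a log2 fold change of -0.20 (SE 0.07, adjusted p = 0.0149 from edgeR). The fall did not pass without r-CRMP2 replicate 2 (-0.14) or without untreated replicate 3 (-0.19). NCAPG shares 1563 bases of sequence with transcripts of LCORL on the opposite strand, which rose (log2 fold change 0.82, 533 to 946 counts against 1339 to 2371 for NCAPG), so its counts are uncertain. NCAPH had a log2 fold change of -0.087 (SE 0.04), SMC4 of -0.0036 (SE 0.10) and SMC2 of 0.15 (SE 0.08), none past the threshold. When libraries were scaled by their totals only, NCAPH (-0.40) and SMC4 (-0.31) passed as falls. SMC2 passed as a rise without r-CRMP2 replicate 2 (0.23). Transcripts annotated to SMC4 share sequence with those of IFT80 and TRIM59, whose counts were at most 628 and 125 against at least 3136 for SMC4.

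The genes of the spindle and of cytokinesis took both directions, with 4 rising (66.7%) and 2 falling (33.3%) of 6. The shares over all genes tested were 28.2% and 30.1%. ANLN (chromosome 7, 36429412 to 36493400), the anillin scaffold of the contractile ring, was at 311, 240.3 and 233 CPM in untreated and at 562, 496 and 571 CPM in r-CRMP2 libraries, with no overlap. Its log2 fold change was 1.06 (SE 0.15, adjusted p = 9.00e-09 from edgeR), and it was just below 1 without untreated replicate 2 (0.998) or 3 (0.98). DLGAP5 (chromosome 14, 55614834 to 55658396), which stabilizes spindle microtubules at the kinetochore, was at 47.9, 40.3 and 41.0 CPM in untreated and at 79.2, 78.9 and 80.2 CPM in r-CRMP2 libraries (log2 fold change 0.88, SE 0.08, adjusted p = 6.21e-09 from edgeR).

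PRC1 (chromosome 15, 91509268 to 91537881), which bundles the microtubules of the midzone, was the most abundant of this group per length with a mean of 196 TPM. It was at 236, 234 and 240.4 CPM in untreated and at 348, 348 and 342 CPM in r-CRMP2 libraries, a narrow spread in both groups, with a log2 fold change of 0.55 (SE 0.01, adjusted p = 1.55e-07 from edgeR). Its antisense gene PRC1-AS1 had at most 342 counts against at least 5744. ECT2, the exchange factor that activates RhoA at the cell equator, rose by 0.26 on the log2 scale, a value of -0.053 with library size alone.

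HMMR (chromosome 5, 162887517 to 162918951), a spindle protein that also binds hyaluronan, was at 35.7, 33.7 and 31.5 CPM in untreated and at 26.1, 23.5 and 25.3 CPM in r-CRMP2 libraries. It fell in all 3 treated libraries, by a log2 fold change of -0.43 (SE 0.07, adjusted p = 0.000142 from edgeR). HMMR-AS1, which overlaps it on the opposite strand, had between 16 and 58 counts against 464 to 993 for HMMR. ASPM (chromosome 1, 197053257 to 197115824), which acts at the spindle poles, was at 87.0, 73.3 and 80.0 CPM in untreated and at 73.2, 47.6 and 65.1 CPM in r-CRMP2 libraries. The groups were separated by a small gap only, the log2 fold change was -0.37 (SE 0.20, adjusted p = 0.00624 from edgeR), and without r-CRMP2 replicate 2 it was -0.20.

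Length moved with the changes of the 42 genes. Of the 4 genes with a deposited length over 8000 bases, CENPE, CENPF and ASPM fell and MKI67 rose. Among the 4055 longest genes tested (4703 bases or more), 3 of 11 members rose and 4 fell, with a median log2 fold change of -0.09. Of all genes tested, at any length, 28.2% rose and 30.1% fell, so these long members were near that share. The other 31 members had 29 rises and 1 fall. Over all genes tested the median was -0.058 among those longest genes and 0.066 among the 4056 shortest (up to 1732 bases). It was -0.046 in genes of 1733 to 2938 bases and -0.066 in genes of 2939 to 4702 bases. Over all genes, only the shortest thus stood apart, and the longest were near those of middle length. Spearman's rho between length and log2 fold change was -0.399 over the 42 genes and -0.081 over 16220 genes with 1 length each, a description in which all points share the same 6 libraries. The libraries differed in this respect: the deviation of r-CRMP2 replicate 2 from its group mean had a rho with length of -0.298 over all genes tested, against 0.256 and 0.0918 in r-CRMP2 replicates 1 and 3 and values between -0.0126 and 0.00728 in the untreated libraries. Over the 42 members the same rho was stronger, at -0.727 in r-CRMP2 replicate 2 and at 0.596 and 0.63 in replicates 1 and 3. In the untreated libraries it lay between -0.215 and 0.153. Without r-CRMP2 replicate 2, 33 members rose and 3 fell. The part of length in these results was not tested further.

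**Figure D3:**
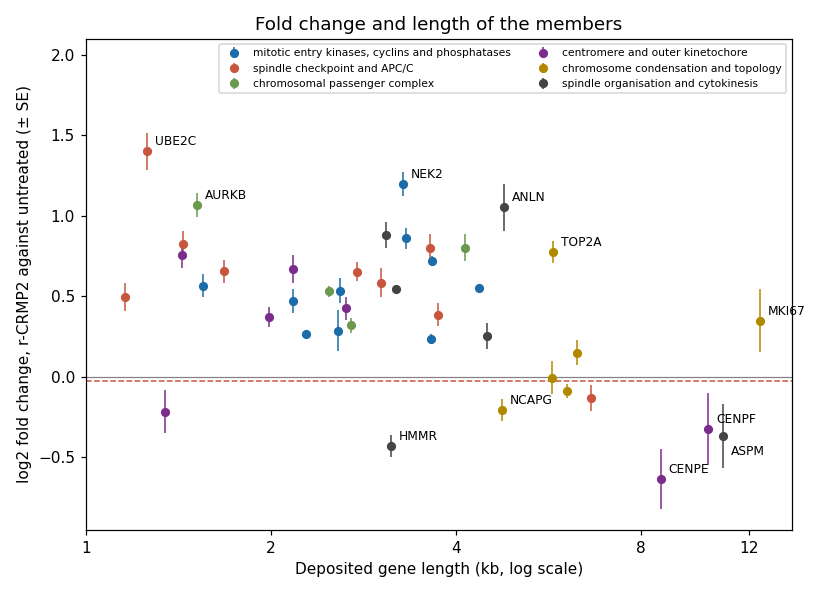
Log2 fold change of each of the 42 genes (vertical axis, bars are SE) against the deposited gene length in kb (horizontal axis, log scale), colored by role. The dashed line is the median of all genes tested, at -0.03. The genes over 8 kb lie below 0 except MKI67, and their bars are wide.

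To place the 42 genes among their neighbors, 8 hand-written lists of other cell division genes were read from the same fit. Of all genes tested, 28.2% rose and 30.1% fell. Other genes of cytokinesis and the spindle rose in 16 of 18 cases and fell in 1 (median log2 fold change 0.40), and the 2 largest rises were in FAM83D (0.93) and PSRC1 (0.77). CCDC69 fell (-1.24). Other regulators of mitotic entry rose in 10 of 14 cases and fell in 1 (median 0.43). The inhibitory kinase WEE1, which phosphorylates CDK1, rose most (1.27, SE 0.05), followed by the CDK subunit CKS1B (1.11), while the phosphatase CDC25A fell (-0.34). WEE1 was at 85.7, 85.8 and 78.1 CPM in untreated and at 197, 204 and 199.9 CPM in r-CRMP2 libraries.

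Other lists, the condensin subunits apart, had rises and falls in closer numbers. Of 33 other kinetochore and centromere genes, 8 rose (24.2%) and 9 fell (27.3%), near the 28.2% and 30.1% of all genes tested (median -0.04). HJURP, the chaperone that loads CENPA, was at 58.3, 54.6 and 54.9 CPM in untreated and at 137, 140.5 and 133 CPM in r-CRMP2 libraries (log2 fold change 1.29, SE 0.04), and CENPC rose by 0.72, while OIP5 (-0.62) and NSL1 (-0.59) fell. Of 17 genes of the APC/C and its direct regulators, 7 rose (41.2%) and 8 fell (47.1%), with a median of 0.08. The core subunits mostly fell. All 8 falls were in core subunits, and the core subunits that rose were ANAPC11 (0.30), ANAPC16 (0.29), CDC16 (0.40) and CDC23 (0.21). The other rises were in FZR1 (0.67), an APC/C activator, FBXO5 and UBE2S, which are not core subunits. The enzyme UBE2S (0.79), which extends ubiquitin chains after UBE2C, and the APC/C inhibitor FBXO5 (0.92) rose most, and the core subunits ANAPC7 (-0.59) and ANAPC2 (-0.50) fell most. Of 15 cohesin genes 5 rose (33.3%) and 6 fell (40%), with a median of 0.002. The largest rises were in CDCA5 (0.97), which protects cohesin, and SGO1 (0.70). The largest falls were in the acetyltransferase ESCO2 (-1.37) and the release factor WAPL (-0.79). Of the 4 other condensin subunits, 3 rose (75%) and 1 fell (25%), where 28.2% and 30.1% of all genes tested did. NCAPD2 (0.42), NCAPG2 (0.25) and NCAPD3 rose and NCAPH2 fell (-0.18), and NCAPG2 was at -0.058 with library size alone.

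Of 12 factors of the MuvB, B-MYB and DREAM complexes that act on the CHR, 4 rose (33.3%) and 6 fell (50%), with a median of -0.13. The largest rises were in RBL2 (0.48) and LIN54 (0.46), the subunit that contacts the CHR. The largest falls were in E2F5 (-1.02) and RBL1 (-0.75). In the list of 48 DNA replication genes, 14 rose and 16 fell (median -0.08), near the 28.2% and 30.1% of all genes tested. RRM2 (1.08) and CDT1 (0.77) rose most and TIPIN (-0.85) and CLSPN (-0.85) fell most. The mitotic list thus had 32 of 42 genes rising where the replication list had 14 of 48, and the difference between the lists was not tested.

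**Figure D4:**
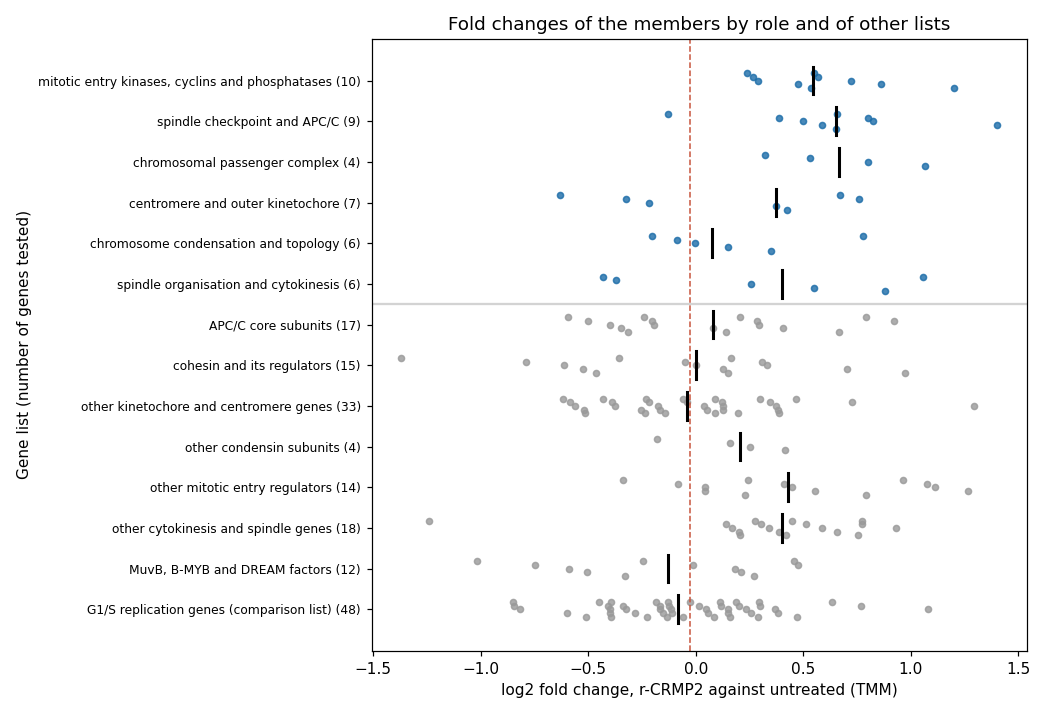
Log2 fold change of each gene (points, horizontal axis) in the 6 roles of the 42 genes (blue) and in 8 other lists (grey), with the number of genes tested behind each name and the median of each list as a black bar. The dashed line is the median of all genes tested, at -0.03. The medians of mitotic entry, checkpoint and passenger genes lie between 0.54 and 0.67, and that of the replication genes lies at -0.08.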

How the data were processed

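Per the file headers, the authors deposited for each library raw counts of reads per gene and TPM values. Recomputed from the counts and lengths, TPM departed from the files by no more than 4.72e-06. The submitters' processing notes name FastQC, HISAT2, DESeq2 and hg19, and the counting tool, annotation and strand use are not given in the sources used here. The counts were tested with edgeR 4.0.16 (limma 3.58.1, R 4.3.3): filterByExpr, TMM, glmQLFit and glmQLFTest, 3 against 3, at an adjusted p of 0.05 and, where stated, a log2 fold change of 1. Standard errors come from log2 CPM with a prior count of 2. The members, roles and lists were chosen with earlier results of these data known. Genes described in full are, by rule, up to 8 called members at each end of the log2 fold changes and the most abundant member of each role, with the 2 largest called changes each way in other lists. Near-identical transcripts (95% over 200 bases) were searched in GENCODE with blastn 2.17.0. Counts were also simulated from these libraries, with 15908 genes tested. The test called 50 of 77 genes given a log2 change of 0.5, 65 of 79 given 1 and 37 of 38 given 2. There were 14 false calls. Far fewer genes changed there than were called in the data, and no simulated library had a length-linked deviation. These rates may therefore not hold for the data. In the files, 27 gene names had become dates. Alternatives were DESeq2 1.42.0, other scalings and filters, a test against a fold of 2, a replicate block and leaving out each library.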

Additional observations from a re-analysis of the deposited data

How the results depend on the processing

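With library size alone, 9 members fell at the adjusted p-value threshold in place of 5, 1 in place of 4 rose past both thresholds and the median log2 fold change was 0.20 in place of 0.51. The median was 0.47 with upper quartile factors, and 2 members passed the test against a fold change of 2. When 1 of the 6 libraries at a time was dropped, members that rose ranged from 30 to 33, members that fell from 3 to 6, rises past both thresholds from 3 to 4 and the median from 0.49 to 0.56. DESeq2 called 31 members higher and 4 lower. Signs turned with library size alone for CDC25C (-0.022), PLK1 (-0.043), FOXM1 (-0.074), SMC2 (-0.16), ECT2 (-0.053) and NCAPG2 (-0.058). With that scaling the rises of BIRC5, BUB1B, MKI67, NUF2 and SPC24 were lost, and ESPL1, NCAPH, SMC4 and SPC25 were called lower. SMC4, which passed in neither direction with TMM, was at -0.31 with library size alone, 0.016 with DESeq2 and under RLE scaling, and between -0.0497 and 0.0923 when single libraries were left out. The causes were not tested. With the replicate number as a block, 32 members rose, 5 fell and the median was 0.51. The deviations of same-numbered libraries had correlations of -0.02, 0.0038 and -0.03. With so few libraries, these values cannot tell whether same-numbered samples were handled together, and the labels give only a number.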
